A study of Mus musculus with 9 samples.

Results

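The genes described here store, release and build fat: 38 genes for lipid droplet coats, lipases and their regulators, the acyltransferases that assemble triglyceride, fatty acid-binding proteins, and the synthesis, elongation and desaturation of fatty acids. They were chosen by name, and 37 of the 38 were found by gene symbol among the 59445 features of the deposited table. Gpat3 was not listed under that symbol. A feature named Agpat9, an older symbol of Gpat3 in RefSeq, is given apart and is not in the counts. RNA came from liver macrophages, sorted as F4/80+ CD11b+ cells. The mice were C57BL/6 males given the liver toxin carbon tetrachloride (CCl4) by 1 intraperitoneal injection, at a labelled dose of 0.6 mg/kg, and sampled 24 hours later. Every mouse received CCl4, and no uninjected group was analysed here. The 4 controls, MAGL fl/fl (also labelled WT), were S1, S3, S4 and S5, all 11 weeks old. The 5 MAGL Mye-/- mice were S8 and S12, 11 weeks old, and S9, S10 and S11, 10 weeks old. MAGL, the product of Mgll, is monoacylglycerol lipase. The labels do not spell out Mye-/-, name what drives the deletion or say whether mice were pooled.

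Cells keep surplus fatty acids as triglyceride in lipid droplets, whose surface carries perilipins. Glycerol 3-phosphate is acylated in turn by GPAT and AGPAT enzymes, dephosphorylated by lipins and acylated a last time by DGAT enzymes. Lipolysis runs backwards in steps: ATGL (Pnpla2) with its co-activator CGI-58 (Abhd5) removes the first fatty acid, hormone-sensitive lipase (Lipe) the next, and MAGL the last from monoacylglycerol. MAGL therefore stands at the end of the path whose other genes are described here. In macrophages, droplets form during inflammation and after uptake of cell debris or lipoproteins, and serve as a store for mediators made from fatty acids.

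Libraries held 33383559 to 46489349 reads, and values are reads divided by the authors' size factor for each library (normalized reads, not corrected for gene length unless stated). The markers of the sort were present in every library: Adgre1, which encodes F4/80, was at 4685 to 6178 in the fl/fl libraries and 5428 to 7801 in Mye-/-, and Itgam, which encodes CD11b, at 41570.4 to 55473 and 42570.5 to 54211. Erythroid markers summed to 5525 to 35097 in the controls, against 2344 to 6567 in Mye-/-. The 4 globin genes had log2 fold changes of -2.46 to -1.86, and 0 of them passed (smallest limma adjusted p = 0.0832). The highest erythroid sum was that of fl/fl S3, the library with the largest share of mitochondrial reads (9.45%). Neutrophil markers summed to 26715 to 48393 in the controls, against 17623 to 38226 in Mye-/-, most of it S100a8 and S100a9 in every library, which other myeloid cells also express. Of the neutrophil list, Ly6g, Camp and Ngp were at 0 in 8, 7 and 7 of 9 libraries. Elane, Mpo, Cxcr2 and Retnlg were at 0 in 5, 4, 4 and 3. Retnlg reached 507 in fl/fl S1 and 578 in Mye-/- S11, and Mpo 417 in Mye-/- S12. Csf3r had reads in every library and a log2 fold change of 0.46 (limma adjusted p = 0.361). S100a8 and S100a9 had log2 fold changes of -0.81 and -1.31 (limma adjusted p = 0.267 and 0.218). Those of Mpo, Retnlg and Cxcr2 were -1.21, 1.41 and 2.34. The markers of adipocytes, the cells that hold most of the body's triglyceride, were close to absent: 5 of 6 (Adipoq, Plin1, Cidec, Cfd and Lep) were at 0 reads in every library, and the summed level of the list was at most 56.6 normalized reads. Hepatocyte markers (10 genes) summed to 613 to 1939.6 in fl/fl and 1256 to 11960.0 in Mye-/-, with the highest sum in S10. Kupffer cell markers (6 genes) summed to 7.16 to 512 in fl/fl and 205 to 1821 in Mye-/-. The 4 tested, Clec4f, Cd5l, Marco and Vsig4, had log2 fold changes of 5.08, 3.85, 2.71 and 2.01. Of these, 0 passed (smallest limma adjusted p = 0.273). Mgll itself was at 18.6, 0, 106 and 22.8 in controls S1, S3, S4 and S5 and at 30.4, 46.6, 5.93, 42.7 and 0 in Mye-/- S8 to S12, too low in both groups to check the labels. In these bulk samples fewer cells of a type and less RNA per cell cannot be told apart.

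No gene of the group passed the test for a difference between genotypes. Of the 37, 35 passed the filter on low values (at least 10 normalized reads in at least 4 libraries), and 0 of these 35 had an adjusted p under 0.05 with limma, 0 with edgeR and 0 with DESeq2. The background was 3 of 15288 features with limma (0.0196%), all 3 higher in Mye-/-, 2 with edgeR (0.0131%) and 146 of 14656 with DESeq2 (0.996%). At an unadjusted p under 0.05 there were 4 of 35 (Abhd5 and Bscl2 with lower values in Mye-/-, Lpin1 and Lpin2 with higher values), against 10.5% of all features tested (6.38% higher and 4.13% lower). That share, 11.4%, is near the background and is not a result about these genes. Abhd5 was the only 1 of the 35 whose groups did not overlap, against 3.3% of all features (1.7% with Mye-/- above and 1.6% with Mye-/- below).

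The median log2 fold change (Mye-/- minus fl/fl, on log2 of the normalized value plus 1) over the 35 was -0.07, with 13 above 0 and 22 below, beside a median of 0.06 over all 15288 features, of which 45.4% were below 0. Among the 30 genes with a mean of at least 100 normalized reads, 9 were above 0 and 21 below, with a median of -0.12, beside 0.02 for all 10783 features at that level. By role, 0 of 6 lipases and regulators lay above 0, 1 of 4 droplet coat and assembly genes and 1 of 5 fatty acid synthesis genes. So did 6 of 9 acyltransferases and lipins and 5 of 9 elongation and desaturation genes. Of the 6 lipases and regulators, only Abhd5 lay further from 0 than its standard error. Among 7 other lipase genes tested, which are not members, 4 lay above 0 and 3 below. The summed level of the 37 was 65611 ± 6213 normalized reads over the 4 controls (SD) and 61969 ± 2304 over the 5 Mye-/- (SD). The plot of differences by role shows these values with their errors.

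**Figure D1:**
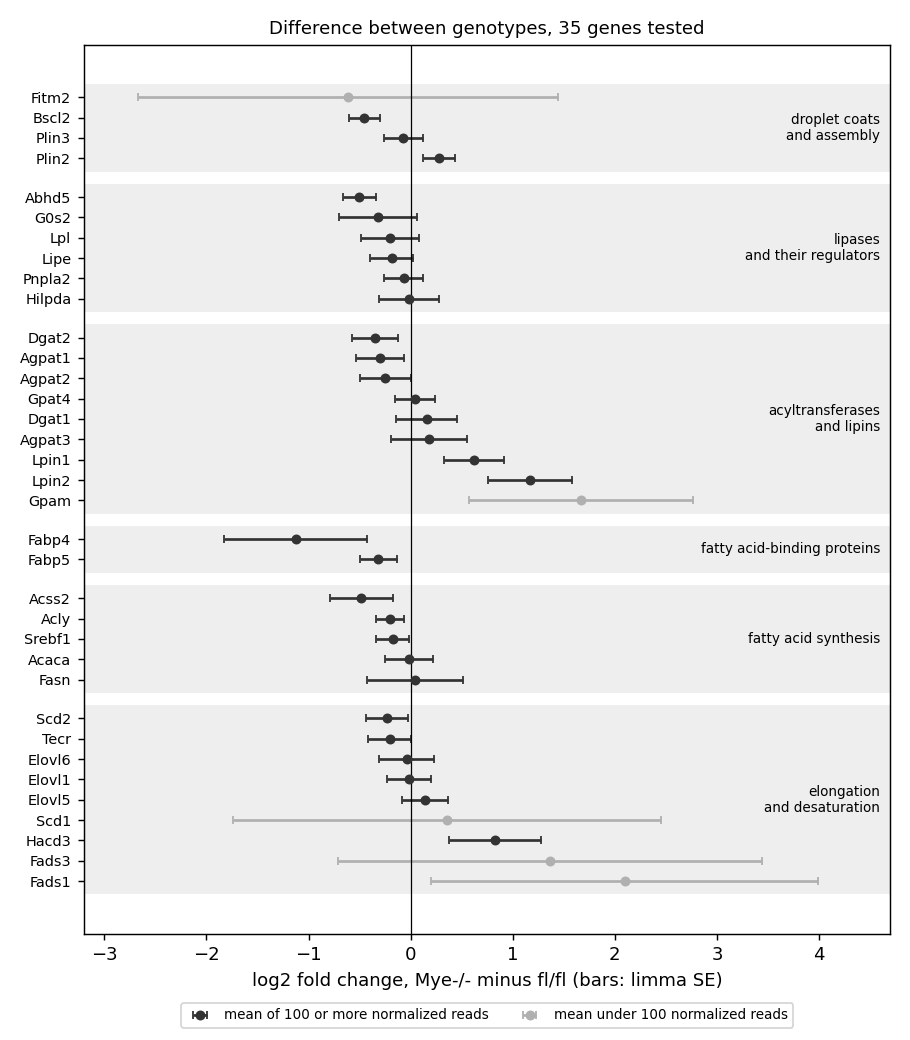
Log2 fold change (Mye-/- minus fl/fl, horizontal axis) with its limma standard error for each of the 35 genes tested, grouped by role. Points in grey are genes with a mean under 100 normalized reads, whose errors are wide. All 6 lipases and regulators lie left of 0, of which only Abhd5 by more than its standard error, and Lpin1 and Lpin2 lie to the right.

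Levels of these genes ranged widely. Per kilobase of the longest coding transcript, Plin2 was the highest, at 6917 normalized reads per kilobase in fl/fl and 8302 in Mye-/-, followed by Hilpda at 3096 and 2789. Acly, Bscl2, Fabp5, Tecr and G0s2 came next, between 1346 and 2063. At the other end Gpam, Scd1, Fads1, Fads2, Fads3, Fitm2 and Me1 were at most 20.2 per kilobase in both groups. Plin2 alone held 17.2% to 31.2% of the reads of the 37 genes, and Acly 10.9% to 17.7%. Of the 37, 31 had reads in every library and 6 were at 0 in at least 1.

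**Figure D2:**
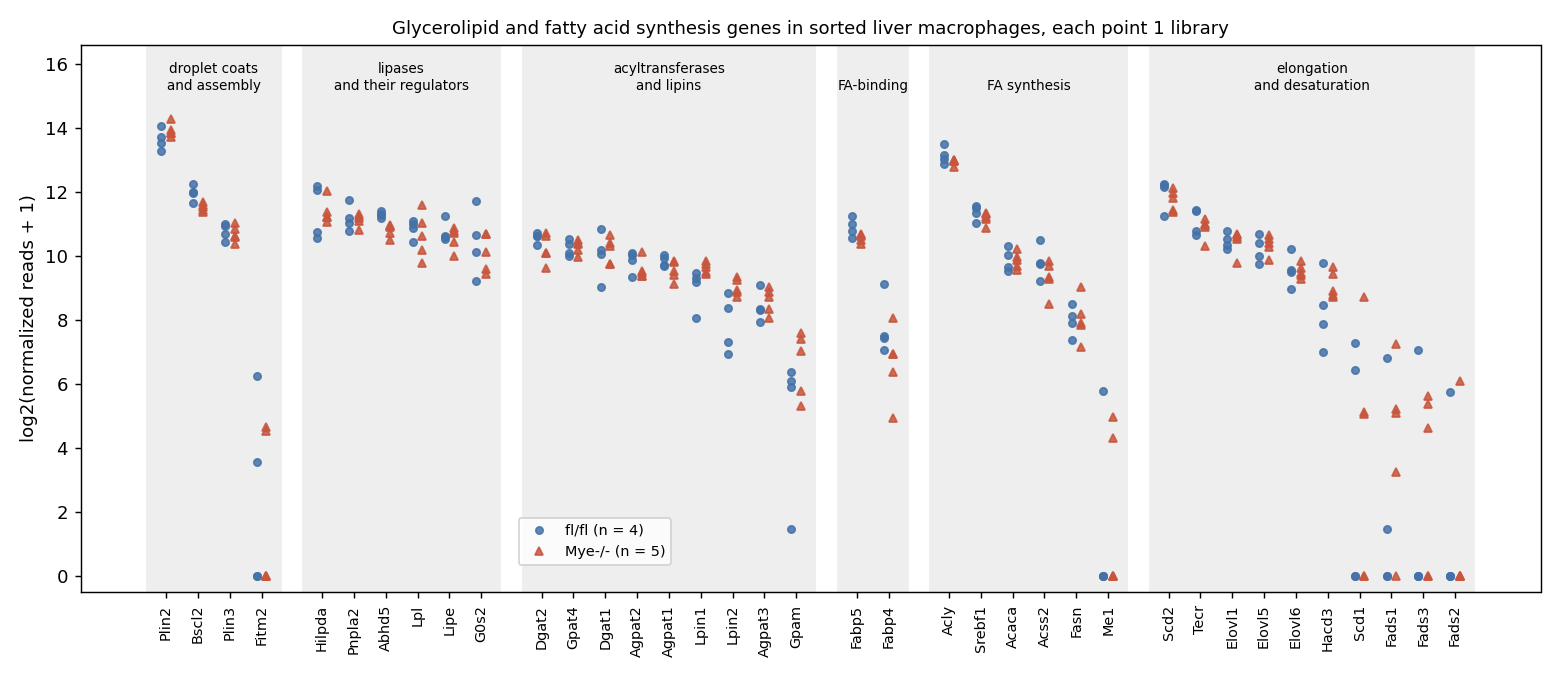
Level of each of the 37 genes in every library, as log2(normalized reads + 1), grouped by role and ordered by mean within a role. Circles are the 4 fl/fl and triangles the 5 Mye-/- libraries, and the points of the genotypes overlap for all genes plotted except Abhd5.

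Plin2, perilipin 2, coats lipid droplets in most cell types and is protected from degradation while it sits on a droplet. Its values were 16928, 9952, 11831 and 13530.0 normalized reads in controls S1, S3, S4 and S5, against 20021, 14749, 14597, 13444 and 15558 in Mye-/- S8 to S12. The highest library was Mye-/- S8 and the lowest fl/fl S3, followed by fl/fl S4, while fl/fl S1 and S5 lay among the Mye-/- values. The control mean was 13060.1 ± 2964 (SD, n = 4), that of Mye-/- was 15674 ± 2544 (SD, n = 5), and the log2 fold change was 0.28 ± 0.16 (SE, limma adjusted p = 0.551). Without fl/fl S3 the log2 fold change was 0.16, without Mye-/- S8 0.18, and adjusted for how many features each library detected 0.11. It was larger without fl/fl S1, at 0.41, and in 11-week-old mice, at 0.46. Plin3, a perilipin that moves between cytosol and new droplets, was at 1757 ± 307 and 1673 ± 299 (log2 fold change -0.07 ± 0.19 SE).

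Bscl2 encodes seipin, which sits where droplets bud from the endoplasmic reticulum. Seipin transcripts were at 4822, 4126, 4008 and 3222 in controls S1, S3, S4 and S5 and at 2795, 3257, 2622, 2925 and 3059 in Mye-/- S8 to S12. Mye-/- S9 was just above the lowest control, fl/fl S5, and the other 4 Mye-/- libraries were below every control. The means were 4045 ± 656 and 2932 ± 243, a log2 fold change of -0.45 ± 0.15 (SE, limma adjusted p = 0.317). It was -0.30 without fl/fl S1 and S3 and -0.56 without fl/fl S5 (adjusted p = 0.135). The Bscl2 feature (chr19:8837467-8848683, mm10, plus strand) shares 6.7% of its exon bases with Gng3 on the opposite strand and 4.05% with the protein-coding gene AC129217.1 on its own strand, and the Gng3 feature was at 0 in 7 of 9 libraries and at most 49.2 in the others. Fitm2, which helps newly made fat bud into droplets, was near the limit of detection, at 75.4, 10.7, 0 and 0 in fl/fl and 22.3, 24.1, 0, 0 and 0 in Mye-/-. It was at 0 in 5 of 9 libraries, where 0 reads allow up to 3, or 2.54 to 3.20 normalized reads in those libraries, for counting error only.

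Abhd5 encodes CGI-58, the protein that activates ATGL. It was the gene of the group with the smallest p. Values were 2498, 2310.3, 2564 and 2731 in controls S1, S3, S4 and S5, against 1911, 1430.0, 1680.2, 1985 and 1958 in Mye-/- S8 to S12. The lowest control, S3, lay above the highest Mye-/- library, S11. The control mean was 2526 ± 174 (SD, n = 4), that of Mye-/- was 1793 ± 236 (SD, n = 5), and the log2 fold change was -0.50 ± 0.16 (SE, limma adjusted p = 0.297, edgeR 0.391, DESeq2 0.167). The difference was therefore larger than the spread of either group but did not pass over all features tested, among which its p ranked 292. Over the 24 alternatives its log2 fold change ran from -0.57 to -0.38, and its smallest adjusted p was 0.167. The value nearest 0 came from the 11-week-old mice, and equally from age as a covariate, since no control is 10 weeks old; among 11-week-old mice Mye-/- S8 and S12 remain. The Abhd5 feature (chr9:122351616-122381523, mm10, plus strand) shares 16.0% of its exon bases with the antisense gene A730085K08Rik, whose own feature was at 0 in 8 libraries and at 19.3 in fl/fl S5.

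Pnpla2, which encodes ATGL, the lipase that CGI-58 activates, was at 3452, 2349.7, 2105 and 1769 in controls S1, S3, S4 and S5 and at 1794, 2182, 2346, 2519 and 2405 in Mye-/- S8 to S12. The Mye-/- values all lay within the range of the controls (log2 fold change -0.07 ± 0.19 SE, limma adjusted p = 0.924). G0s2 and Hilpda encode small proteins that bind and inhibit ATGL, and Hilpda is also a target of hypoxia-inducible factors. G0s2 ranged from 598 to 3341 in fl/fl and from 693 to 1649 in Mye-/-, and Hilpda from 1504 to 4687 and 2124 to 4208. G0s2 was highest in fl/fl S1. Hilpda was at 4208 to 4687 in fl/fl S1 and S5 and Mye-/- S8, and at most 2629 in the other 6 libraries, so its high values crossed the genotypes. Their log2 fold changes were -0.32 ± 0.38 and -0.01 ± 0.29 (SE).

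Lipe, hormone-sensitive lipase, was at 1753 ± 446 in fl/fl against 1539.9 ± 335 in Mye-/- (a log2 fold change of -0.19 ± 0.21 SE). The control S1, at 2419, was the highest library, and the other 3 controls were between 1478 and 1571. The interval of the Lipe feature in the table (chr7:25336518-25396380, mm10) also spans Cnfn, whose own feature was at 0 in all 9 libraries. The exons of Lipe share 15.6% of their bases with the antisense gene 4732471J01Rik. Lpl, lipoprotein lipase, which is secreted and frees fatty acids from lipoproteins outside the cell, was at 1374, 1884, 2190.1 and 2036 in fl/fl and 1159.7, 885, 2097, 3102 and 1585 in Mye-/- S8 to S12. Its spread was wider in Mye-/-, where S9 and S11 held the lowest and the highest of all 9 values.

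**Figure D3:**
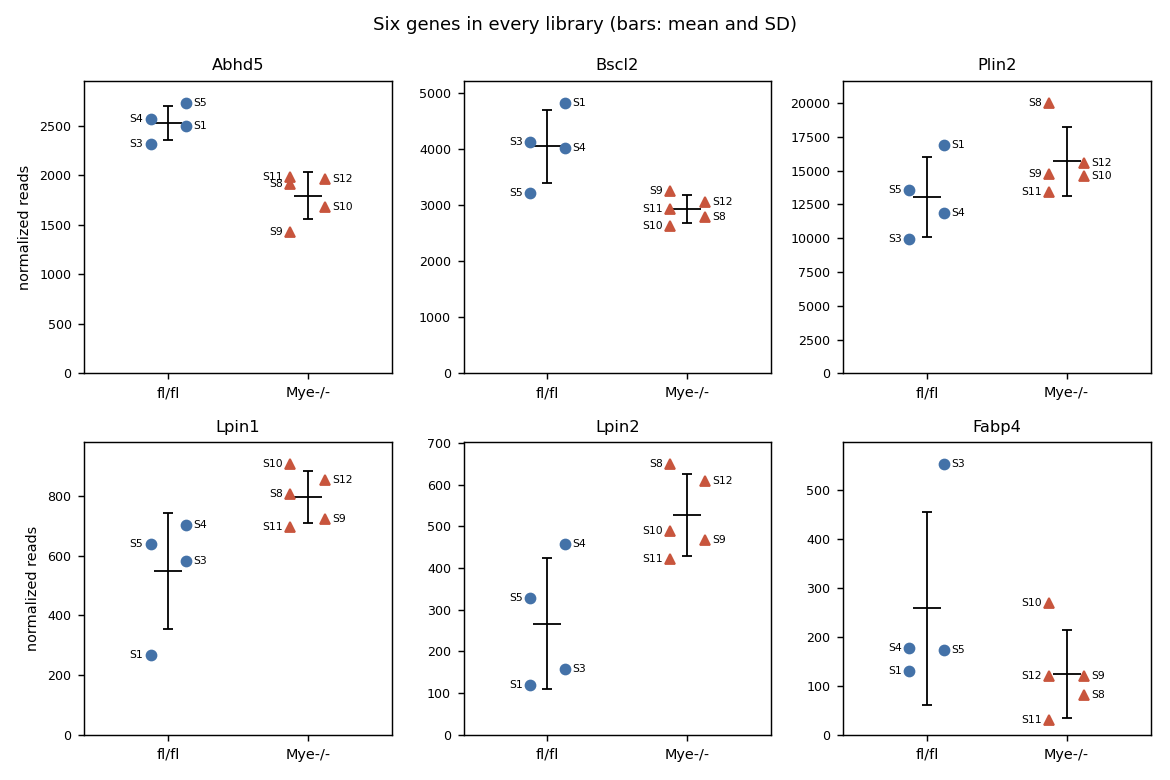
Normalized reads of 6 genes in each library, labelled by mouse, with the mean and SD of each genotype (fl/fl, n = 4, and Mye-/-, n = 5). The groups separate for Abhd5 and overlap for Bscl2, Plin2, Lpin1, Lpin2 and Fabp4, with fl/fl S1 and S3 lowest for Lpin2.

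Lipins are the phosphatidate phosphatases that make diacylglycerol, and they also act in the nucleus as co-regulators of transcription. Lpin2 was at 121, 158, 458 and 329 in controls S1, S3, S4 and S5 and at 649, 468, 489, 421 and 609.8 in Mye-/- S8 to S12. Only Mye-/- S11 lay below a control value, that of S4, while fl/fl S1 and S3 were lower than all other libraries. The means were 266 ± 157 and 528 ± 97.4, a log2 fold change of 1.17 ± 0.41 (SE, limma adjusted p = 0.332). Without fl/fl S1 and S3 it was 0.42 (adjusted p = 0.753), and without fl/fl S4 it was 1.49.

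The values of Lpin1 were 268, 583, 704 and 640.4 in the same controls and 806, 721, 906, 694 and 852 in Mye-/-. Here fl/fl S1 alone stood low, and Mye-/- S11 lay just below fl/fl S4. Means were 549 ± 193 and 796 ± 88.4, a log2 fold change of 0.62 ± 0.29 (SE, limma adjusted p = 0.473), and 0.31 without fl/fl S1. Both lipin genes thus had higher means in Mye-/-, and both differences were smaller without fl/fl S1 and S3. These are the controls with the fewest reads, and S3 also had the highest erythroid marker sum; the part of either in the lipin values was not tested.

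Sequences before a RefSeq start site are shown for the lipin genes and Abhd5. Abhd5 is the gene whose groups did not overlap, and the lipins are the pair with higher means in Mye-/-. The window of Bscl2 is not shown. Each is a stretch of 240 bases from 250 to 11 bases before a RefSeq start site (GRCm38.p6), 5′ to 3′ on the gene's strand. Capitals mark a match to the GC box GGGCGG on either strand. RefSeq windows were found for 29 of the 38 genes. The Lpin2 window precedes a later start and lies inside the gene, which begins at chr17:71182560 in GENCODE M21. The Lpin1 and Abhd5 windows lie outside their genes.
Lpin1 (chr12:16610977-16611216, minus strand): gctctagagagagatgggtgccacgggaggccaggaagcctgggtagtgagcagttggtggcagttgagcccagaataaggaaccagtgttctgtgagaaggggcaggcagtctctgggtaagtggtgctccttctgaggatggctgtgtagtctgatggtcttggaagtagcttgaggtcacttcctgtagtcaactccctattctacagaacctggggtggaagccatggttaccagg
Lpin2 (chr17:71183282-71183521, plus strand, 1 of 3 listed starts): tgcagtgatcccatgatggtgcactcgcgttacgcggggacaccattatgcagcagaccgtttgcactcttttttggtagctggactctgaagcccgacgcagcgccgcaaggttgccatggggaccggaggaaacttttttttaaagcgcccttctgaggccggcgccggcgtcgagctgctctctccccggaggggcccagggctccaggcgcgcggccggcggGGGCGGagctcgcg
Abhd5 (chr9:122351366-122351605, plus strand): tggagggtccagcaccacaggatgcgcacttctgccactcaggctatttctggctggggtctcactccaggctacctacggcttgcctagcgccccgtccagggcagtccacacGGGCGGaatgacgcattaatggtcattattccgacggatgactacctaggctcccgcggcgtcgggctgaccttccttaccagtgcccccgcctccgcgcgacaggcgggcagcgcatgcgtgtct

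The GC box, bound by SP-family factors, was present once in the Lpin2 and once in the Abhd5 window, and these letters were not in the Lpin1 window. It occurred in 24 of the 41 windows listed for the 29 genes and in 31.3% of all 32851 such windows. None of the 3 held the E-box CACGTG (5.69% of windows), CCAAT (33.0%) or the cyclic AMP response element TGACGTCA (1.44%), searched on both strands, with no overlap between the motifs' letters. Another of the 3 Lpin2 windows, not shown, held CCAAT. G and C made up 54.6% of the Lpin1 window, 65.0% of that of Lpin2, which lies inside the gene, and 63.8% of that of Abhd5.

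Dgat1 and Dgat2 encode unrelated enzymes for the last step of triglyceride synthesis. Dgat2 was at 1575, 1295, 1684 and 1569 in fl/fl and 1082, 1694, 1097, 779 and 1569.8 in Mye-/- S8 to S12, where S9 and S12 reached control values and the other 3 were below every control (log2 fold change -0.35 ± 0.23 SE, limma adjusted p = 0.609). That value was -0.19 without Mye-/- S11, -0.23 in 11-week-old mice and -0.55 when adjusted for detected features. Dgat1 was at 519 to 1824 in fl/fl and 864 to 1595 in Mye-/-, with the lowest value in fl/fl S3 and the highest in fl/fl S1. Dgat1 made up 40.8% ± 10.2 of the reads of the pair over the controls and 49.2% ± 10.6 over Mye-/- (SD), from 28.6% in fl/fl S3 to 63.7% in Mye-/- S11.

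For the first acylation, Gpat4, which sits in the endoplasmic reticulum, had a mean of 1223 ± 211 in fl/fl and 1258 ± 178 in Mye-/-. The feature listed as Agpat9, the older symbol of Gpat3, was at 869, 917, 714 and 1217 in fl/fl and 1028, 1222, 548, 686 and 383 in Mye-/- S8 to S12 (log2 fold change -0.36 ± 0.31 SE, limma adjusted p = 0.717). The feature lies at chr5:100846130-100899102 (mm10), and 30.0% of the exon bases of Gpat3 overlap an antisense gene, 4930458D05Rik. It took 43.0% ± 3.14 of the reads of the pair with Gpat4 in fl/fl and 37.1% ± 13.4 in Mye-/-. Among Mye-/- libraries that share was 50.7% and 51.2% in S8 and S9 and 22.0% to 34.2% in S10, S11 and S12, so libraries of 1 genotype lay further apart than the means of the genotypes.

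Gpam, the mitochondrial enzyme prominent in liver and fat, was low, at 59.2, 66.9, 1.75 and 81.7 in fl/fl and 38.6, 169.5, 192, 53.4 and 129.8 in Mye-/- S8 to S12. Its log2 fold change of 1.67 ± 1.10 (SE, limma adjusted p = 0.614) was 0.50 without fl/fl S4, which held 2 reads, and 2.71 without S1 and S3. It was 0.28 when adjusted for detected features, 0.68 with a pseudocount of 50 and 0.88 with quantile normalization. For the next acylation, Agpat1, Agpat2 and Agpat3 had means of 919.8, 923 and 358 in fl/fl and 757, 778 and 399.8 in Mye-/-. Their log2 fold changes were -0.30 ± 0.23, -0.25 ± 0.25 and 0.18 ± 0.37 (SE), and the smallest limma adjusted p of the 3 was 0.683.

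Fatty acid-binding proteins carry fatty acids in the cytosol, and Fabp4 and Fabp5 are those of macrophages and adipocytes. Fabp5 was the abundant one, at 1496, 2438, 2026 and 1739 in controls S1, S3, S4 and S5, against 1637, 1432, 1626, 1329 and 1590.3 in Mye-/- S8 to S12. The control S1 lay among the Mye-/- values and the other 3 controls above them (means 1925 ± 405 and 1523 ± 136, log2 fold change -0.32 ± 0.18 SE, limma adjusted p = 0.549). Without fl/fl S3 the Fabp5 value was -0.20, and adjusted for detected features it was -0.16. Fabp4 was at 131, 553, 178 and 173 in the same controls, against 81.2, 121, 269, 29.9 and 120.4 in Mye-/-. The control S3 was more than 3 times any other control, and Mye-/- S10 was the highest of its group. The log2 fold change was -1.12 ± 0.70 (SE, limma adjusted p = 0.591), -0.68 without fl/fl S3, and -0.70 without Mye-/- S11. Fabp4 is also made by endothelial cells, whose 5 markers summed to 517 in fl/fl S3, within the fl/fl range of 312 to 1074, and to 329.8 to 491 in Mye-/-. Of the 5, Stab2 had reads in fl/fl S3 only (83.6). Cdh5 was at 56.9, 220, 241 and 79.1 in the same controls and at 116, 32.1, 0, 29.9 and 13.7 in Mye-/-. Its log2 fold change was -2.82 (limma adjusted p = 0.453). That of Clec4g was -0.77, and those of Pecam1 and Kdr were 0.38 and 0.32. Adipocyte markers were at or near 0, as above, with Retn at 46.6 in fl/fl S3, 56.6 in Mye-/- S11 and 29.0 in S12. The part of other cells in the Fabp4 values was not tested.

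Fatty acid synthesis starts from acetyl-CoA, made from citrate by ATP-citrate lyase (Acly) or from acetate by Acss2, and is run by acetyl-CoA carboxylase (Acaca) and fatty acid synthase (Fasn) under the transcription factor SREBP1 (Srebf1). Acly was by far the most abundant of these, at 8305, 7459.9, 11662 and 9093 in fl/fl and 6987, 7996, 7928, 8093 and 8109 in Mye-/- S8 to S12. The highest value was that of fl/fl S4, the lowest that of Mye-/- S8, and fl/fl S3 lay among the Mye-/- libraries (log2 fold change -0.21 ± 0.14 SE, limma adjusted p = 0.629). It was -0.08 without fl/fl S4 and -0.40 without S1 and S3. Acss2 was at 851, 870.4, 1443 and 598 in the controls, against 643, 906, 358, 826 and 621 in Mye-/-, with the extremes in fl/fl S4 and Mye-/- S10 (log2 fold change -0.48 ± 0.31 SE, limma adjusted p = 0.602). Leaving out fl/fl S4 gave -0.25, leaving out Mye-/- S10 gave -0.27, and adjusting for detected features gave -0.29. Exons of Acss2 share 3.89% of their bases with Gss, 1.94% with Ggt7 and 3.30% with Acss2os, all on the other strand, and without a stated strand setting such reads cannot be told apart.

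For the steps after acetyl-CoA the means of the genotypes were close. Acaca was at 963 ± 238 in fl/fl against 942 ± 166 in Mye-/- (a log2 fold change of -0.02 ± 0.23 SE), and Fasn at 261 ± 81.6 and 284 ± 144 (log2 fold change 0.04 ± 0.47 SE). Fasn was low per length, at 26.0 and 28.3 normalized reads per kilobase, against 2063 and 1767 for Acly. Srebf1 was at 2588, 2903, 3014 and 2108 in fl/fl against 1891, 2611, 2263, 2381 and 2549 in Mye-/- (a log2 fold change of -0.18 ± 0.16 SE, limma adjusted p = 0.738), with values of both genotypes mixed. Me1, malic enzyme, which supplies NADPH for synthesis, had reads in 3 of 9 libraries (fl/fl S5 and Mye-/- S8 and S10, at most 54.5) and did not pass the filter.

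Fatty acids are then lengthened and desaturated in the endoplasmic reticulum. Of the stearoyl-CoA desaturases, which make monounsaturated fatty acids, Scd2 was the abundant one. It was at 4591, 2445, 4747 and 4903 in fl/fl and 2756, 3612, 3999.7, 2642 and 4456 in Mye-/- S8 to S12, and Scd1 made up at most 9.5% of the pair. Control S3 held the lowest Scd2 value and the other 3 controls lay above every Mye-/- library (log2 fold change -0.23 ± 0.21 SE, limma adjusted p = 0.727). Fads1 and Fads2, the desaturases of polyunsaturated fatty acids, and the related gene Fads3 were at the limit of detection. Fads1, Fads2 and Fads3 were at 0 in 3, 7 and 5 of 9 libraries and at most 152, 67.8 and 131 in the others, and Fads2 did not pass the filter. For Fads3 the log2 fold change, 1.37 ± 2.08 (SE), and the linear means, 32.8 in fl/fl against 22.6, differed in sign.

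Elongase levels overlapped between genotypes. By the linear means and the log2 fold change, Elovl1 differed in opposite directions, both near 0. Elovl1, which extends very long saturated chains, was at 1426 ± 242 in fl/fl against 1433 ± 321 in Mye-/- (a log2 fold change of -0.01 ± 0.22 SE). Elovl5, which extends polyunsaturated chains, was at 1223 ± 357 and 1328 ± 257 (0.14 ± 0.23 SE). Elovl6, which takes palmitate to stearate, was at 789 ± 289 and 739.5 ± 118 (-0.04 ± 0.27 SE). Hacd3 and Tecr carry out the dehydration and last reduction of each elongation cycle. Hacd3 was at 127, 881, 233 and 349.6 in fl/fl and 807, 435, 423, 698 and 476 in Mye-/-, with the lowest and the highest of the 9 values both among controls, in S1 and S3. Its log2 fold change was 0.82 ± 0.45 (SE, limma adjusted p = 0.538), 0.40 when S1 was left out and 1.33 when S3 was. The edgeR and DESeq2 values were 0.53 and 0.51. Tecr was at 2208 ± 604 and 1897 ± 377 (-0.20 ± 0.21 SE).

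Several low genes of the group were highest in the library with the highest sum of hepatocyte markers. Mye-/- S10, where the hepatocyte markers summed to 11960.0 against at most 2059 elsewhere, held the highest value of Scd1 (421), Gpam (192), Fads1 (152) and Fads2 (67.8), all of which hepatocytes express. Scd1 was at 85.9, 154, 0 and 0 in fl/fl and 32.5, 0, 421, 0 and 34.2 in Mye-/- S8 to S12, so that it was at 0 in 4 libraries. The values moved together in this 1 library, in which the Kupffer cell markers were highest too (summed level 1821, next 803 in Mye-/- S11). The part of RNA from other cells in the levels of these genes was not tested. Other libraries with reads of these genes, such as fl/fl S1 with 111 for Fads1, were low in hepatocyte markers (613). Gpam was also at 169.5 in Mye-/- S9, where the hepatocyte markers summed to 1592. Among better expressed members, Lpin1 was highest in S10 (906). Acss2 (358), Tecr (1263), Lipe (1024) and Bscl2 (2622) had their lowest value there. Fasn, at 227, and Plin2, at 14597, were not at an extreme in S10.

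**Figure D4:**
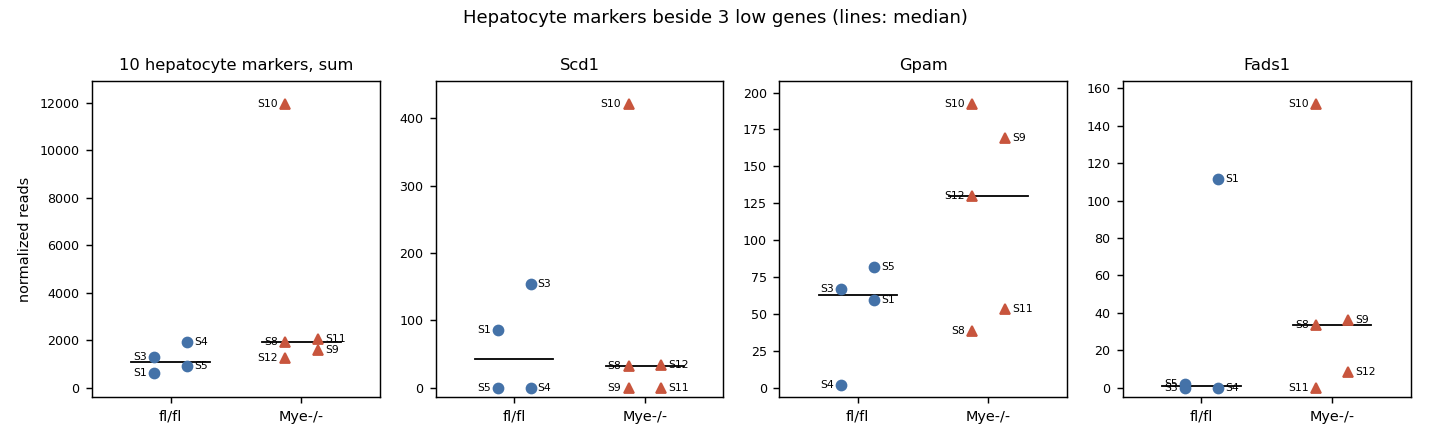
Summed level of 10 hepatocyte markers and the levels of Scd1, Gpam and Fads1 in each library (vertical axes, normalized reads; lines, group medians). Mye-/- S10 is highest in all 4 panels, at 11960.0 for the marker sum and 421 for Scd1.

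The proportions within pairs of related genes were also compared. Plin2 was 87.7% ± 4.0 of Plin2 plus Plin3 over the 4 controls (SD) and 90.2% ± 1.87 over the 5 Mye-/- libraries (SD). Fabp4 was 10.9% ± 5.06 of its pair with Fabp5 and 7.18% ± 4.48, and Lpin1 was 68.6% ± 7.60 of the lipin pair and 60.3% ± 3.67. For all 6 pairs compared, those of Dgat1, Scd1 and Gpat3 included, the values of the genotypes overlapped. These shares need no size factor.

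Other genes of the same pathways were tested in the same fit. Of 81 listed by function, 79 were found by symbol and 49 passed the filter, and 0 of the 49 passed the test. They divided into 27 above 0 and 22 below, with a median log2 fold change of 0.03. Only 1 gene (2.04%) had an unadjusted limma p under 0.05, beside 10.5% of all features tested. That gene was Ldah, a hydrolase of the droplet surface, at 251, 390.4, 276 and 462 in fl/fl and 453, 527, 514, 722 and 617 in Mye-/- S8 to S12 (log2 fold change 0.74 ± 0.32 SE, limma adjusted p = 0.437). Nr1h3, the sterol sensor LXR alpha that drives Srebf1, was at 1268 ± 309 and 1754 ± 533 (0.45 ± 0.23 SE, limma adjusted p = 0.507). Insig1, which holds SREBP factors in the endoplasmic reticulum, was at 4388 ± 244 and 5440.3 ± 1127 (0.29 ± 0.16 SE). Soat1, which esterifies cholesterol for storage in droplets, was at 5387 ± 534 and 6298 ± 700.2 (0.22 ± 0.13 SE). The fatty acid receptor gene Pparg was at 402 ± 189 and 609 ± 261, and the feature of the acyl-CoA synthetase gene Acsl3, which the table names jointly for Acsl3 and Utp14b, at 151 ± 49.5 and 268 ± 130.1. These 6 had the smallest p of the 49, all with higher means in Mye-/-, and none passed.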

How the data were processed

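The deposited table is a signal table. The authors deposited DESeq-normalized values per FAST DB gene on mm10, per the file headers and tool names in the labels; the values show reads divided by 1 factor per library, with no log or length correction. The submitters' processing notes name DESeq, STAR 2.4.0, SAMtools, Picard, FastQC and mm10. For the counting tool, strand setting and handling of duplicates, no statement is given in the sources used here. All nonzero values were whole multiples of 1 read's worth (100% within 0.01 reads), and edgeR and DESeq2 were run on those reads as alternatives and called 2 of 15288 and 146 of 14656 features.

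Genotypes (5 Mye-/- against 4 fl/fl) were compared by limma-trend (limma 3.58.1, R 4.3.3; two-sided) on log2(value + 1). The 15288 features reaching 10 in 4 or more libraries entered, with Benjamini-Hochberg adjustment over all of them and a threshold of 0.05. Lengths, strands and exon overlaps came from GENCODE M21 (GRCm38). The labels do not say that each library is a separate mouse, and p-values assume it. Members and lists were chosen with earlier results of these data known. Full values are given for the 12 members with the smallest p, with the other members by level within their role. Of the pathway genes, Mgll and the 6 with the smallest p are named, with values per library for Mgll and Ldah and means for the other 5.

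Alternatives were pseudocounts of 0.5, 8 and 50, other filters (none, or a mean of at least 100), TMM and quantile scaling, edgeR 4.0.16, DESeq2 1.42.0, limma without a trend or with array weights, age or detected features as a covariate, 11-week-old mice only, and leaving out each library, or fl/fl S1 and S3 together. Reads carry no molecular identifiers, so limits from read counts cover counting error only.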

Additional observations from a re-analysis of the deposited data

Results flagged for a closer look

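In 12 of 70 groups of libraries checked over these genes, or 17.1%, 1 library stood far from the others of its genotype. For normally distributed values chance flags about 1 in 20 groups, and over all features tested the share was 8.78% of 30506 groups. The excess was not tested, and genes at 0 in several libraries are among the 12. In the controls, S1 was the highest for Fitm2 (75.4 normalized reads, next 10.7), Lipe (2419, next 1571) and Fads1 (111, next 1.76). Control S3 was the highest for Fabp4 (553, next 178) and Fads3 (131, the others at 0), and the lowest for Scd2 (2445, next 4591). Among Mye-/- libraries, S8 was the highest for Hilpda (4208, next 2629) and the lowest for Acly (6987, next 7928) and Elovl1 (869, next 1485). Mye-/- S10 was the highest for Scd1 (421, next 34.2) and Fads1 (152, next 36.2), and S12 for Agpat2 (1121, next 741). All 12 were in S1, S3, S8, S10 or S12, and the cause was not tested.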

How the results depend on the processing

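No member passed the threshold under any of the 24 alternatives, and neither did any other gene of the pathway list. The 12 members with full values kept their direction under every alternative that gave a value, in 287 comparisons (Gpam gave none with the mean filter). They were picked by the smallest p in these same libraries, so a kept direction is no separate support. Other members changed direction: Hilpda in 9 of 24 alternatives, Elovl1 in 8, Gpat4 in 7, and Plin3 and Acaca in 6 each. Lipe, Srebf1, Scd2, Agpat1 and Agpat3 did so in 0. The median log2 fold change of the members ran from -0.15 (without fl/fl S5) to -0.01 (array weights). Members at an unadjusted p under 0.05 were 4 of 35. They were 7 (20.0%) without fl/fl S3, beside 10.7% of all features in that fit, and 1 (2.86%) in the 11-week-old mice, beside 3.31%. The count over all features, 3, was 17 with a pseudocount of 8 and 17 with 50, 6 with TMM scaling, 8 with quantile normalization, 146 with DESeq2, 21 without a trend and 5 with array weights. It was 0 with age as a covariate, 0 in 11-week-old mice, 0 when adjusted for the number of features detected, 9 without fl/fl S1 and S3, and 0 (without Mye-/- S8 or S10) to 20 (without fl/fl S5) on leaving out 1 library. The cause was not tested. No paired analysis was possible because the groups share no replicate numbers. Fitm2, Scd1, Fads1, Fads2, Fads3 and Me1, at 0 in at least 1 library, were too low at this depth to compare.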
